A study of Mus musculus with 25 samples.

Results

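Transcripts of the epidermal growth factor (EGF) receptor and of its ligands were followed in mouse lung after injury with bleomycin, an anticancer drug that damages the lung and leads to fibrosis. The genes were Ereg, Areg, Hbegf, Btc, Tgfa and Egf, which encode ligands, and Egfr, which encodes the receptor. All probe sets annotated to 1 of these 7 symbols alone were taken, which gave 16 of the 45101 probe sets on the array and 6 of the 7 genes (1 probe set for Ereg, 2 for Hbegf, 2 for Btc, 3 for Tgfa, 1 for Egf and 7 for Egfr). No probe set carried the symbol Areg alone in the annotation used, and Areg was not analysed here.

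All mice were female. FP-KO mice lack FP, the prostaglandin F receptor that Ptgfr encodes, and were set against wild-type (WT) mice. Bleomycin was instilled through the trachea on Day 0 at 1 mg/kg in 40 ul of saline. The FP-KO lungs comprised 4 of Day 0, 4 of Day 7 and 4 of Day 14, and the WT lungs 4 of Day 0, 4 of Day 7 and 5 of Day 14, with each mouse on 1 Affymetrix 430 2.0 array. The labels call the Day 0 arrays baseline, and the sources used here state neither age and strain nor the design of the Ptgfr deletion.

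The EGF receptor is a tyrosine kinase of the cell surface. Its ligands are made as membrane-anchored precursors and are released by proteases of the ADAM family, after which the bound receptor signals through Ras, Raf, MEK and ERK to early-response genes such as Egr1 and Fos. In the lung this pathway is known for growth and repair of the epithelium, and forced production of TGF-alpha in mouse airway epithelium is known to cause fibrosis. Ereg, Areg and Btc are neighbours on mouse chromosome 5, together with the related ligand gene Epgn.

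Values are deposited intensities, which are linear and were scaled by the authors to a trimmed mean of 500 on each array. Differences are on the log2 scale after a floor of 24.3 and quantile normalization, and the number after ± is the standard error that limma gives. The floor makes these differences understate changes of dim genes. The words rose, fell and passed are kept for an adjusted p under 0.05, with Benjamini-Hochberg adjustment across all 12062 genes that entered the test. Each array was taken as 1 mouse, as titled, and p-values measure the spread between arrays. Of the 6 genes, 5 were tested: Egf was above the array median in 0 arrays and was left out by the filter on low values.

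As a check of the labels, Ptgfr intensity (probe set 1453924_a_at) lay between 21.1 and 57.6 on the FP-KO arrays, against 122.6 to 383.7 on the WT arrays. On Day 14 the arrays fell into a first set of 5 (FP-KO No. 1 and 2, WT No. 1 to 3), with scores of -27.7 or lower on the second principal component, and a second set of 4 (FP-KO No. 3 and 4, WT No. 4 and 5), with scores of -1.35 or higher. No label says what separates the sets, so Day 14 results on which they bear are given within each set too. One array, FP-KO Day 14 No. 2, stood apart from its group, with a score of -28.9 on the first component against -5.37 to 1.44 for the rest of that group and -35.0 to -24.8 for the Day 0 arrays. Its 18S ribosomal RNA intensity was 6339.0, against 211.7 to 746.1 in the other FP-KO Day 14 arrays. A high value was not particular to it, since FP-KO Day 0 No. 1 read 6648.1 and lay with its group on the first component (-25.4). Results that rest on FP-KO Day 14 No. 2 are given with and without it.

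Ereg encodes epiregulin, a ligand that epithelial cells and macrophages are known to make in injury and inflammation. In FP-KO lungs its intensity was 16.2, 45.1, 25.8 and 44.4 on Day 0, 202.0, 206.9, 217.2 and 162.1 on Day 7, and 83.0, 20.3, 157.6 and 64.1 on Day 14. In WT lungs it was 21.5, 29.6, 20.1 and 30.6 on Day 0, 341.8, 278.0, 134.1 and 206.4 on Day 7, and 198.9, 203.0, 204.1, 278.1 and 182.3 on Day 14. All Day 7 arrays of both genotypes and all Day 14 WT arrays thus lay above all Day 0 arrays, whereas the Day 14 FP-KO arrays spread between Day 0 and Day 7 levels.

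**Figure D1:**
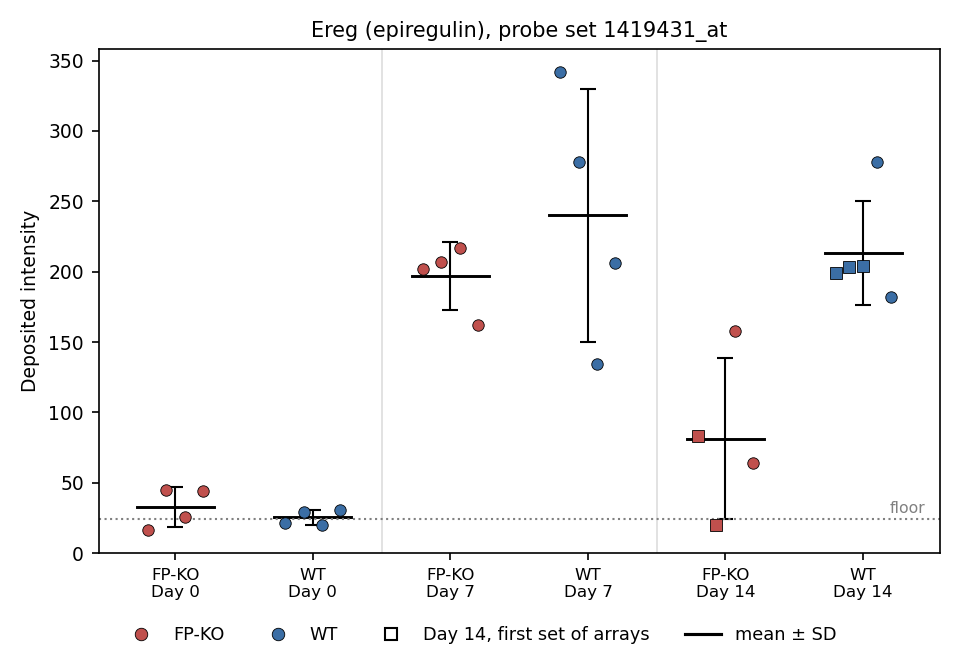
Deposited intensity of Ereg on each array (points), by genotype and day, with group mean ± SD (black lines, n = 4, and n = 5 for WT Day 14) and the floor of 24.3 (dotted line); squares are the first set of Day 14 arrays. The 4 FP-KO arrays of Day 14 lie between 20.3 and 157.6, below all 5 WT arrays of that day, which start at 182.3.

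The mean intensity of Ereg in FP-KO lungs was 32.9 ± 14.3 on Day 0, 197 ± 24.1 on Day 7 and 81.2 ± 57.3 on Day 14 (SD, n = 4 each). In WT lungs the means were 25.4 ± 5.42 on Day 0 (n = 4), 240 ± 89.7 on Day 7 (n = 4) and 213 ± 37.3 on Day 14 (SD, n = 5). From low to high the group means ran WT Day 0, FP-KO Day 0, FP-KO Day 14, FP-KO Day 7, WT Day 14 and WT Day 7. Of the 5 neighbouring pairs in this order, FP-KO Day 14 and FP-KO Day 7 alone were set apart by a test. The values of FP-KO and WT on Day 0, of FP-KO on Day 14 and Day 0, and of WT on Day 14 and Day 7 overlapped without passing, and those of FP-KO Day 7 and WT Day 14 overlapped and were not tested against each other. On Day 0, 1 FP-KO array and 2 WT arrays were at or under the floor.

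On Day 7 Ereg rose 6.36-fold in FP-KO lungs (log2 difference 2.67 ± 0.37, limma adjusted p = 3.26e-05) and 8.40-fold in WT lungs (3.07 ± 0.37, adjusted p = 1.83e-06). The intensities of Day 7 and Day 0 did not overlap in either genotype, which held for 26.5% of all genes tested in FP-KO lungs and 35.0% in WT lungs. The difference between genotypes on Day 7 was -0.18 on the log2 scale with a 95% interval of -0.94 to 0.58, and the interaction of genotype and time from Day 0 to Day 7 was -0.40 (limma adjusted p = 0.936). Ereg entered the tests through its bleomycin arrays, since it was above the array median in 13 arrays and on none of Day 0; with all 18193 genes tested and no filter, both rises passed as well.

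On Day 14 in WT lungs Ereg was still 7.80-fold above Day 0 (2.96 ± 0.35, limma adjusted p = 1.4e-06), without overlap of the arrays, as for 28.5% of all genes tested. It differed from Day 7 by -0.11 (95% interval -0.83 to 0.62). In FP-KO lungs it fell 3.00-fold between Day 7 and Day 14 (-1.59 ± 0.37, adjusted p = 0.00522). This fall was -1.10 without FP-KO Day 14 No. 2 (adjusted p = 0.0255), -2.14 with the first set of Day 14 arrays alone (adjusted p = 0.000521) and -1.03 with the second set alone, where it did not pass (adjusted p = 0.135). Nor did it pass when only the arrays of the 2 groups entered the fit (adjusted p = 0.0737). The interaction of genotype and time from Day 7 to Day 14 did not pass (-1.48, 95% interval -2.53 to -0.43, limma adjusted p = 0.523), so the change over that interval was not shown to differ between genotypes.

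Against Day 0, Ereg on Day 14 in FP-KO lungs stood higher by a log2 difference of 1.08 ± 0.37, which did not pass (limma adjusted p = 0.109). It passed without FP-KO Day 14 No. 2 (1.57, adjusted p = 0.00332) and with the second set alone (1.64, adjusted p = 0.0274), but not with the first set alone (0.53, adjusted p = 0.404).

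Set side by side on Day 14, Ereg was 3.16-fold lower in FP-KO than in WT lungs (-1.66 ± 0.35, limma adjusted p = 0.00492), and no FP-KO array reached the lowest WT array. Such a lack of overlap was seen for 11.0% of all genes tested. Without FP-KO Day 14 No. 2 the difference was -1.17 (adjusted p = 0.0291), and with only the arrays of the 2 groups in the fit it did not pass (adjusted p = 0.0546). Within the first set of arrays it was -2.14 (adjusted p = 0.00538), with 83.0 and 20.3 in FP-KO lungs against 198.9, 203.0 and 204.1 in WT lungs. Within the second set it was -1.21 and did not pass (adjusted p = 0.322), with 157.6 and 64.1 in FP-KO lungs against 278.1 and 182.3 in WT lungs. FP-KO values were the lower ones in both sets. The interaction of genotype and time from Day 0 to Day 14 was -1.88 ± 0.51 (limma adjusted p = 0.0445), a call close to the threshold that was lost without FP-KO Day 14 No. 2 (-1.39, adjusted p = 0.0882) and on leaving out 15 other arrays one at a time (-2.01 to -1.76, adjusted p = 0.0503 to 0.0933). It was also lost in 7 of 16 other settings, among them no filter on low values (adjusted p = 0.0844), a floor at the 10th percentile (adjusted p = 0.0677) and the second set alone (-1.43, adjusted p = 0.349).

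Markers of several cell types differed between genotypes on Day 14 as well. All 10 genes of the macrophage list were above the floor on every array, with summed intensities of 27198.4 to 44249.3 in FP-KO Day 14 lungs, against 41586.1 to 49970.2 in WT Day 14 lungs. On Day 14, 6 of the 10 were lower in FP-KO than in WT lungs and 0 higher, where 5.64% of all genes were lower, with C1qa at -0.98 ± 0.22 and Msr1 at -1.01 ± 0.25, and without FP-KO Day 14 No. 2 this count was 3. Markers of injured transitional epithelium (Krt8, Krt7 and others, 7 genes) summed to 14911.2 to 18111.7 in FP-KO Day 14 lungs and 19120.2 to 22617.9 in WT Day 14 lungs, and 2 of the 7 were lower in FP-KO lungs. Ciliated cell markers were higher in FP-KO than in WT lungs for 5 of 6 genes (median difference 0.57) and cardiac muscle markers for 5 of 6 (median 0.70), where 4.89% of all genes were higher, and without FP-KO Day 14 No. 2 each count was 1. Their summed intensities on Day 14 were 10679.0 to 13009.1 in FP-KO lungs and 7285.3 to 8647.0 in WT lungs for ciliated cells, and 12393.2 to 22360.0 in FP-KO lungs and 8951.4 to 10922.9 in WT lungs for cardiac muscle. Of 2 adipocyte markers tested, 1 was higher in FP-KO lungs. Of the 7 mast cell and basophil markers, Mcpt8 and Mcpt4 were at or under the floor on 24 and 19 of 25 arrays and Kit and Cma1 on 0, and 0 of the 2 tested differed between genotypes on Day 14. The part of these cell types in the Ereg result was not tested, and in whole lung fewer cells of a type and less RNA per cell cannot be told apart.

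Hbegf encodes heparin-binding EGF-like growth factor, a ligand of the EGF receptor and of ErbB4 that binds heparan sulfate. It was measured by the 2 probe sets 1418350_at and 1418349_at, of which the first stood for the gene in the test across genes because its mean was higher. In FP-KO lungs, 1418350_at read 1655.8, 1418.7, 2126.8 and 2045.2 on Day 0, 2813.6, 3152.9, 3065.0 and 2532.0 on Day 7, and 1227.1, 918.9, 1807.9 and 1978.4 on Day 14. In WT lungs it read 1867.4, 2150.1, 1875.6 and 2191.0 on Day 0, 3257.2, 3099.5, 2976.6 and 2879.9 on Day 7, and 1564.5, 1898.7, 1709.7, 2827.1 and 2597.9 on Day 14. Day 7 was above Day 0 on every array of both genotypes. Such a lack of overlap held for 26.5% of all genes tested in FP-KO lungs and 35.0% in WT lungs. Day 14 was below Day 7 on every array of both genotypes and overlapped Day 0. Day 14 and Day 7 did not overlap in 19.6% of all genes tested in FP-KO lungs and 11.3% in WT lungs.

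On Day 7, 1418350_at rose in FP-KO lungs (0.65 ± 0.20, limma adjusted p = 0.0241) and in WT lungs (0.59 ± 0.20, adjusted p = 0.0274), about 1.5-fold in each. Both calls were close to the threshold. The FP-KO rise was 0.54 to 0.66 and did not pass (adjusted p = 0.051 to 0.0848) without FP-KO Day 0 No. 1 or 2 or without FP-KO Day 7 No. 1, 2 or 3. The WT rise was 0.55 to 0.58 (adjusted p = 0.0541 to 0.069) without WT Day 0 No. 1 or 3 or without WT Day 7 No. 1 or 2. Between Day 7 and Day 14 the probe set fell in FP-KO lungs (-1.004 ± 0.20, adjusted p = 0.00244; -0.79 without FP-KO Day 14 No. 2, -1.44 with the first set alone and -0.57 with the second set alone, all passing), while in WT lungs the difference was -0.56 and did not pass (adjusted p = 0.0781). These time courses were not shown to differ between genotypes (interaction from Day 7 to Day 14 -0.44, 95% interval -1.02 to 0.14).

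The second Hbegf probe set, 1418349_at, read 587.4, 505.1, 621.1 and 597.2 on Day 0, 787.9, 846.8, 864.9 and 818.7 on Day 7, and 878.1, 549.1, 627.9 and 662.3 on Day 14 in FP-KO lungs. In WT lungs it read 578.7, 647.2, 664.1 and 654.8 on Day 0, 955.7, 898.7, 916.0 and 965.4 on Day 7, and 1153.6, 1239.2, 1177.3, 1145.6 and 785.2 on Day 14. On Day 14, 4 of 5 WT arrays lay above all FP-KO arrays, and WT No. 5 lay among them. On Day 7 all WT arrays lay above all FP-KO arrays, a lack of overlap found in 5.41% of genes, but by a margin that did not pass.

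Tested among all 34945 probe sets with 1 symbol, 1418349_at rose on Day 7 in FP-KO lungs (0.56 ± 0.12, limma adjusted p = 0.00555) and in WT lungs (0.57 ± 0.12, adjusted p = 0.00225). It was also higher on Day 14 than on Day 0 in WT lungs (0.75 ± 0.12, adjusted p = 0.000103), whereas the FP-KO difference of 0.20 ± 0.12 did not pass (adjusted p = 0.459). On Day 14 it was lower in FP-KO than in WT lungs by a log2 difference of -0.71 ± 0.12 (adjusted p = 0.00316). That difference was -0.60 without FP-KO Day 14 No. 2 (adjusted p = 0.0179), -0.80 within the first set (adjusted p = 0.00633) and -0.56 within the second set, where it did not pass (adjusted p = 0.177). The interaction from Day 0 to Day 14 did not pass (-0.55 ± 0.17, adjusted p = 0.136).

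Tested among all probe sets, 1418350_at did not pass on Day 7 in FP-KO lungs (0.65 ± 0.21, limma adjusted p = 0.0541) or in WT lungs (0.59 ± 0.21, adjusted p = 0.059), with differences close to those of 1418349_at. On Day 14 the probe sets depended on the set of arrays. For 1418350_at in the fit across genes, Day 14 differed from Day 0 in WT lungs by 0.03 (95% interval -0.37 to 0.43), by -0.24 with the first set alone (limma adjusted p = 0.156) and by 0.42 with the second set alone, which passed (adjusted p = 0.0372). For 1418349_at the same difference was 0.87 with the first set alone and 0.58 with the second set alone, both passing. The mean of both probe sets was higher in WT lungs on Day 14 than on Day 0 (0.39, adjusted p = 0.0137). In FP-KO lungs, Day 14 against Day 0 was -0.355 for 1418350_at over all arrays and did not pass (95% interval -0.78 to 0.07, limma adjusted p = 0.352). With the first set alone it was -0.79 and passed (adjusted p = 0.00189), and with the second set alone it did not pass. FP-KO differed from WT on Day 14 by -0.55 ± 0.19 for 1418350_at without passing (limma adjusted p = 0.0699), and by -0.33 without FP-KO Day 14 No. 2 (adjusted p = 0.327). With the set of arrays as a term in the fit the genotype difference was -0.62 and passed (adjusted p = 0.00193), as it did without FP-KO Day 14 No. 3 or 4 or WT Day 14 No. 1 (-0.72 to -0.65, adjusted p = 0.0232 to 0.0445). With the first set alone it passed too (-0.72, limma adjusted p = 0.0105), but not with the second set alone. The mean of both probe sets was lower in FP-KO than in WT lungs on Day 14 (-0.63, limma adjusted p = 0.00312). The ratio of 1418350_at to 1418349_at within an array ran from 1.36 to 1.67 in the first set of Day 14 arrays, 2.47 to 3.31 in the second set and 2.81 to 3.72 on Day 0 and Day 7. Both genotypes of the first set had the low ratio. This ratio was chosen after the values were seen, and of 5539 genes with at least 2 probe sets above the filter, 11.6% had a ratio that likewise set the same 5 arrays apart. The Hbegf ratio shifted by -1.064 on the log2 scale between the first set and all other arrays, and 4.35% of those genes had a shift at least as large.

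**Figure D2:**
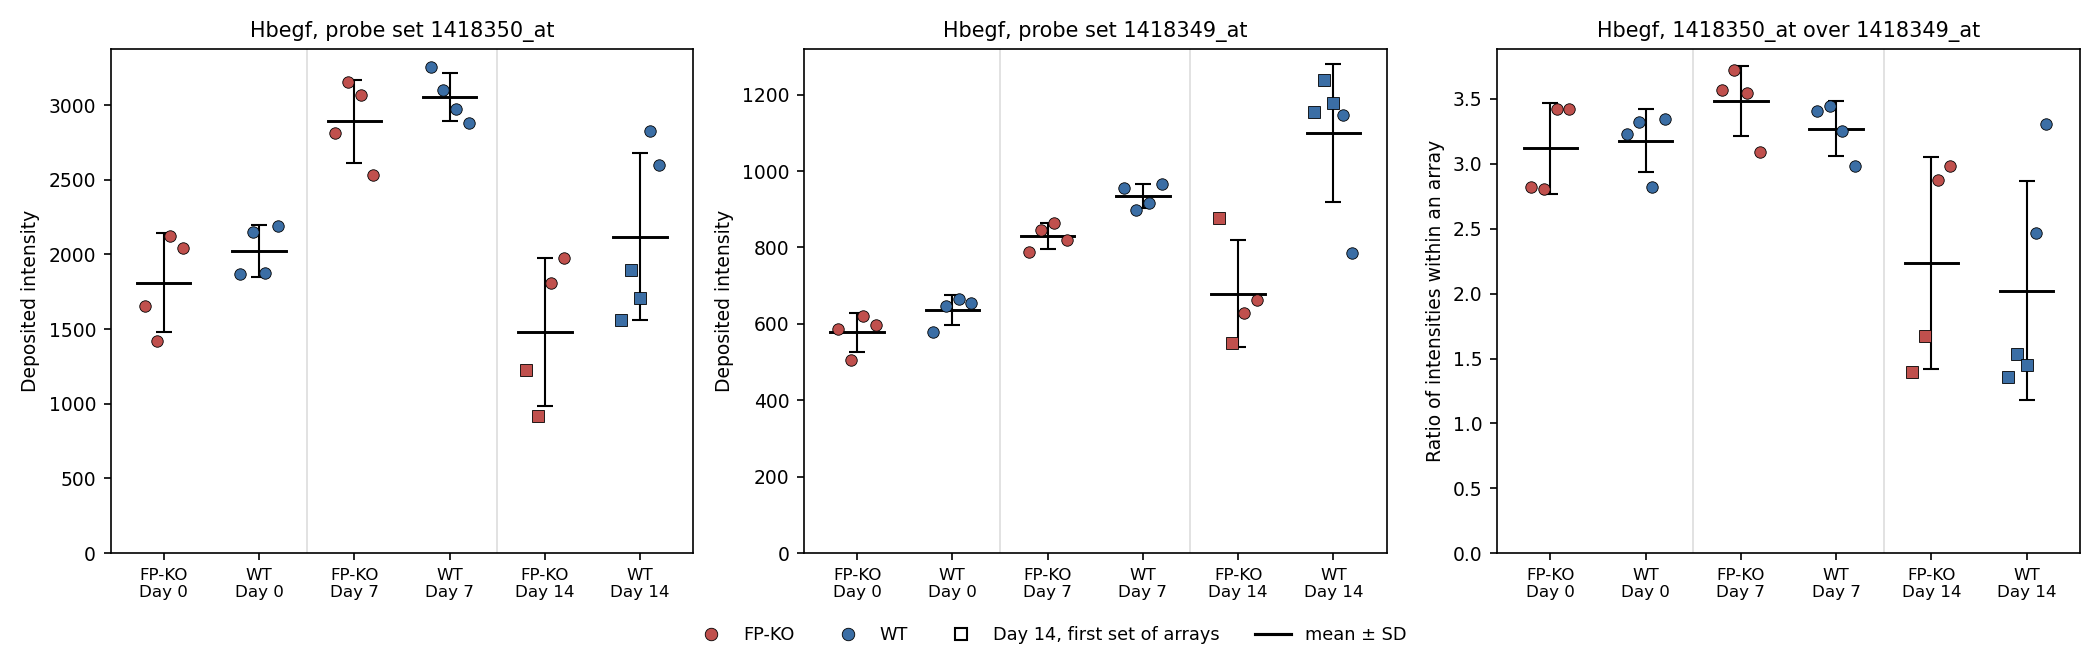
Deposited intensity of the Hbegf probe sets 1418350_at and 1418349_at, and the ratio of the first to the second within each array, by genotype and day (points are arrays, black lines are mean ± SD, squares are the first set of Day 14 arrays). Both probe sets are high on Day 7, and the ratio falls to between 1.36 and 1.67 in the 5 arrays of the first set, in both genotypes.

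Tgfa encodes TGF-alpha, the ligand closest to EGF in its action on the receptor. Its probe set 1421943_at read 467.6, 496.4, 357.8 and 399.2 on Day 0, 375.1, 342.5, 330.5 and 466.2 on Day 7, and 345.3, 481.2, 310.8 and 398.9 on Day 14 in FP-KO lungs. In WT lungs it read 414.2, 525.0, 405.8 and 415.7 on Day 0, 396.0, 384.6, 381.4 and 351.8 on Day 7, and 331.1, 294.4, 274.1, 318.0 and 422.4 on Day 14. The FP-KO days overlapped throughout, and of the WT Day 14 arrays only No. 5 reached the Day 0 range.

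In WT lungs Tgfa fell on Day 14 by a log2 difference of -0.45 ± 0.14 (limma adjusted p = 0.0165). The call was lost without WT Day 0 No. 2 (-0.33, adjusted p = 0.0819) or WT Day 14 No. 3 (-0.39, adjusted p = 0.05). With the first set of Day 14 arrays alone the difference was -0.59 and passed, and with the second set alone it was -0.24 and did not (adjusted p = 0.365). It was carried by this probe set alone: 1450421_at read 94.4 to 151.2 on WT Day 14, against 121.3 to 143.8 on WT Day 0. The mean of all 3 Tgfa probe sets differed by 0.07 (limma adjusted p = 0.732). That mean includes the dim 1421942_s_at, below the median of every array, which averaged 73.3 on WT Day 14 and 46.2 on WT Day 0. The FP-KO difference of Day 14 from Day 0 was -0.19 (95% interval -0.50 to 0.13), and FP-KO differed from WT on Day 14 by 0.21 (95% interval -0.09 to 0.51).

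Btc encodes betacellulin, which binds both the EGF receptor and ErbB4. Its higher probe set, 1435541_at, averaged 165 ± 22.5 on Day 0, 161 ± 21.0 on Day 7 and 149 ± 26.7 on Day 14 in FP-KO lungs (SD, n = 4 each). In WT lungs it averaged 175 ± 19.4 on Day 0, 153 ± 14.4 on Day 7 and 141 ± 28.3 on Day 14 (SD, n = 4, 4 and 5). The groups overlapped on all days, no contrast passed, and on Day 14 FP-KO differed from WT by 0.01 (95% interval -0.30 to 0.32). The other Btc probe set stayed between 31.1 and 63.8, which is below the median of every array.

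Egf encodes EGF itself, which in mice is made mainly in kidney and salivary gland. Its probe set read 42.5 to 89.8 in FP-KO lungs and 37.9 to 69.4 in WT lungs over the 3 days, below the median of every array. With no filter on low values its differences did not pass in any contrast, the widest being 0.65 for the interaction from Day 0 to Day 7 (95% interval 0.06 to 1.24, limma adjusted p = 0.82).

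**Figure D3:**
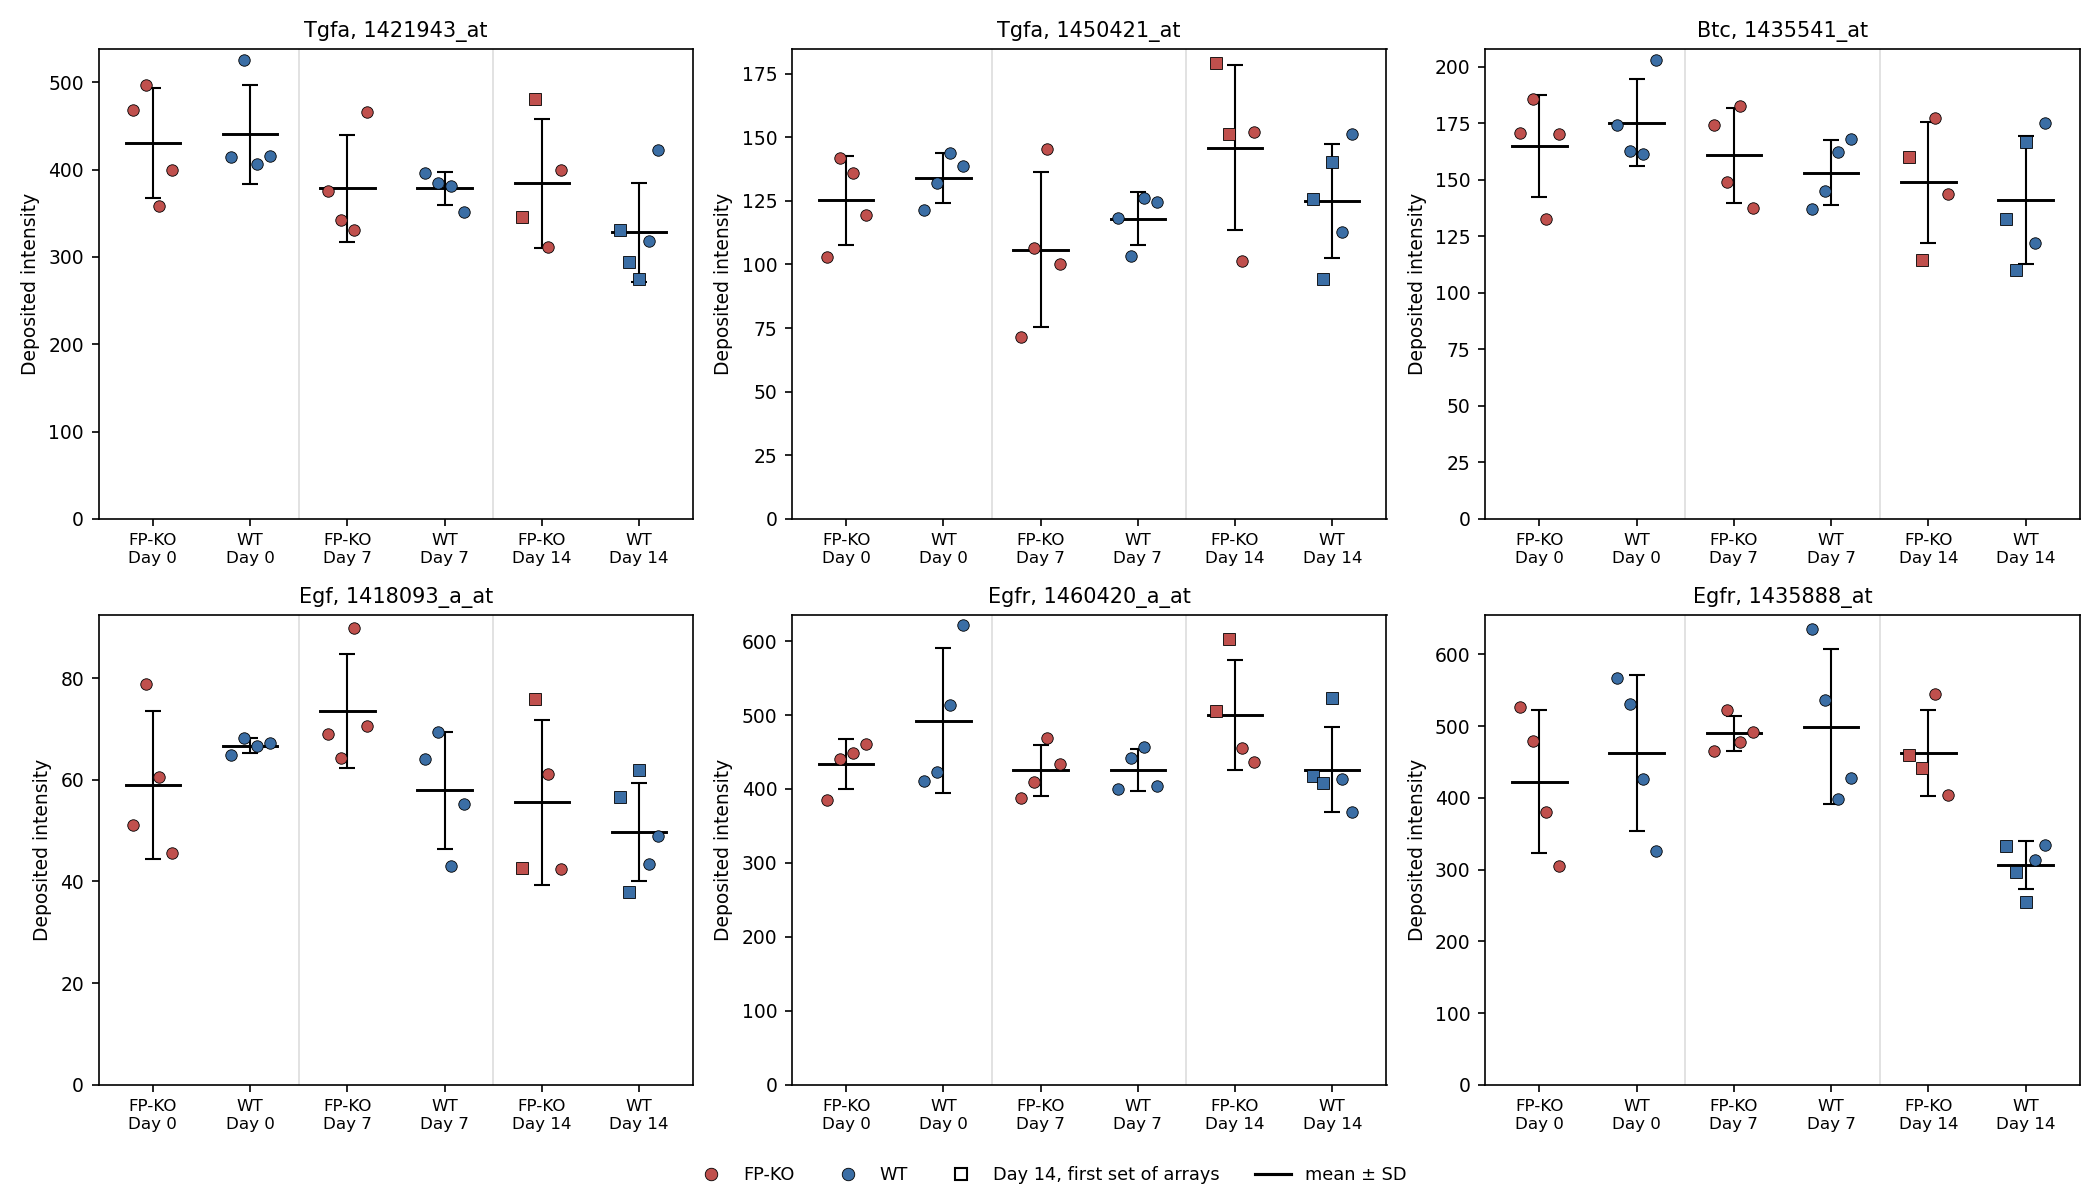
Deposited intensity of Tgfa, Btc, Egf and Egfr probe sets on each array, by genotype and day (points), with mean ± SD (black lines); squares are the first set of Day 14 arrays. Egfr probe set 1435888_at lies between 254.3 and 334.2 on WT Day 14 and between 404.0 and 545.0 on FP-KO Day 14.

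Egfr, the receptor, was read by 7 probe sets, of which 1460420_a_at stood for the gene. It read 385.6, 440.3, 448.0 and 461.3 on Day 0, 388.4, 409.2, 469.4 and 433.1 on Day 7, and 505.3, 602.5, 454.8 and 437.1 on Day 14 in FP-KO lungs. In WT lungs it read 411.0, 423.0, 513.5 and 622.4 on Day 0, 400.1, 441.7, 456.8 and 403.9 on Day 7, and 418.0, 408.3, 523.2, 413.1 and 368.9 on Day 14. The groups overlapped on every day. No contrast passed for it, and the nearest was WT Day 14 against Day 0 (-0.25 ± 0.11, limma adjusted p = 0.0631), which passed without FP-KO Day 14 No. 2, WT Day 0 No. 1 or WT Day 14 No. 3 (-0.32 to -0.25, adjusted p = 0.0222 to 0.0476).

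Another Egfr probe set, 1435888_at, read 459.4, 441.9, 545.0 and 404.0 in FP-KO Day 14 lungs, against 333.2, 296.2, 254.3, 314.1 and 334.2 in WT Day 14 lungs. All FP-KO arrays of that day were thus above all WT arrays, as groups failed to overlap in 11.0% of all genes tested. Among all probe sets it fell in WT lungs between Day 0 and Day 14 (-0.58 ± 0.19, limma adjusted p = 0.0345; -0.46 with the second set alone, adjusted p = 0.379), and the difference of FP-KO from WT on Day 14 did not pass (0.58 ± 0.19, adjusted p = 0.105). Probe set 1424932_at also had no overlap on Day 14, with 229.1 to 253.1 in FP-KO lungs and 157.1 to 220.9 in WT lungs, and did not pass. The 4 remaining Egfr probe sets were dim, with 1457563_at at or under 41.7 on all arrays.

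Counted over the 5 genes tested, 2 rose and 0 fell on Day 7 in FP-KO lungs, where 12.6% of all genes rose and 10.7% fell. In WT lungs 2 rose and 0 fell on Day 7, where 17.1% of all genes rose and 18.0% fell. On Day 14 against Day 0, 0 of 5 passed in FP-KO lungs, where 3.26% of all genes did, and in WT lungs 1 rose (Ereg) and 1 fell (Tgfa), where 19.1% of all genes rose and 19.5% fell. Between Day 7 and Day 14, 0 rose and 2 fell in FP-KO lungs (10.7% of all genes rose and 12.0% fell), and 0 of 5 passed in WT lungs (5.94% of all genes did).

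FP-KO differed from WT in 0 of 5 genes on Day 0, where 0.0166% of all genes passed, and in 0 of 5 on Day 7, where 0.0166% did. On Day 14 it was lower in 1 of 5, Ereg, and higher in 0, where 5.64% of all genes were lower and 4.89% higher. The interaction of genotype and time passed in 0 of 5 for Day 7 against Day 0 (0.0% of all genes) and in 0 of 5 for Day 14 against Day 7 (0.00829% of all genes). For Day 14 against Day 0 it was negative in 1 of 5, Ereg, and positive in 0, where it was negative in 1.84% of all genes and positive in 1.28%. At an unadjusted limma p under 0.05, the counts of 0 became 1 for FP-KO Day 14 against Day 0, 1 for WT Day 14 against Day 7 and 1 for the interaction from Day 7 to Day 14, and were 0 for FP-KO against WT on Day 0 and Day 7 and for the interaction from Day 0 to Day 7.

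**Figure D4:**
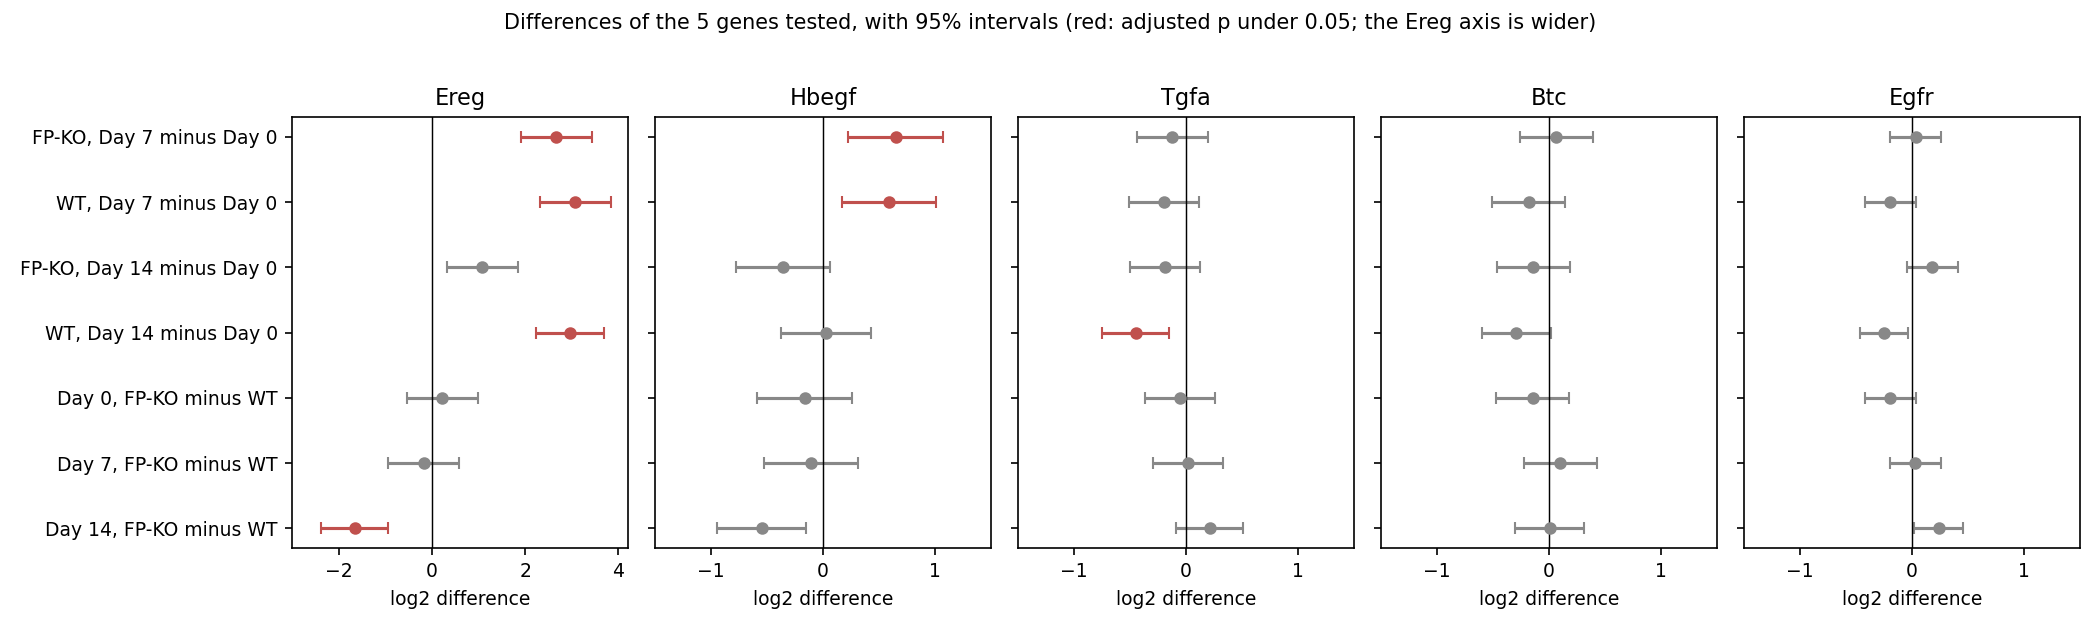
Log2 differences of the 5 genes tested, with 95% intervals of the limma fit, over all 25 arrays; red marks an adjusted p under 0.05, and the axis of Ereg is wider than the others. Ereg stands out by size, at 2.67 and 3.07 on Day 7 and at -1.66 for FP-KO minus WT on Day 14, while the other genes stay within about 1 log2 unit.

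In the fit of every probe set, 2 of the 16 rose and 0 fell on Day 7 in FP-KO lungs, where 6.05% of all probe sets rose and 4.47% fell, and 2 rose and 0 fell in WT lungs, where 9.28% rose and 8.59% fell. On Day 14 against Day 0, 0 of the 16 passed in FP-KO lungs (0.95% of all probe sets), and 2 rose and 2 fell in WT lungs (11.7% and 10.4%). Between Day 7 and Day 14, 0 rose and 2 fell in FP-KO lungs (4.46% and 4.92%), and 0 passed in WT lungs (1.94%). On Day 14, 2 of the 16, the Ereg probe set and Hbegf 1418349_at, were lower in FP-KO than in WT lungs and 0 were higher (2.06% and 1.63%). On Day 0 and Day 7, 0 of the 16 differed between genotypes (0.02% and 0.0172% of all probe sets). The interaction passed for 0 of the 16 for Day 7 against Day 0 (0.0%), Day 14 against Day 0 (0.321%) and Day 14 against Day 7 (0.0114%).

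The median difference of the 5 genes was 0.07 on Day 7 in FP-KO lungs and -0.18 in WT lungs, against 0.00 and -0.01 over all genes tested. For FP-KO against WT on Day 14 it was 0.01, against 0.00 over all genes.

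Genes whose log2 intensity followed each member tested most closely over the 25 arrays were listed as a description. Since the arrays share groups and days, the correlation of deviations from the group means is given beside each. For Ereg they were Fscn1, which encodes the actin-bundling protein fascin (r = 0.963, deviations 0.696), C1qc, a complement C1q chain (0.959, deviations 0.735), and Pgam1, a glycolytic enzyme (0.959, deviations 0.711). For Hbegf they were Nudcd2 (r = 0.934, deviations 0.895), Cdk7 (0.924, deviations 0.853) and Eif2b1 (0.921, deviations 0.831). Deviations from the group means still hold the split of the Day 14 arrays into sets. For Hbegf 1418350_at the log2 SD within a group was 0.54 (FP-KO) and 0.38 (WT) on Day 14, against 0.07 to 0.28 in the other groups. The part of the sets in these correlations was not tested. Likeness over the 25 arrays was lower for Tgfa (4930486L24Rik, Tvp23b and Xpnpep3, r = 0.787 to 0.806, deviations 0.677 to 0.760). It was lower as well for Btc (Ntan1, Ss18l2 and Eif3k, 0.707 to 0.728, deviations 0.6355 to 0.715) and Egfr (Lrrc56, Dmd and Hdac5, 0.690 to 0.721, deviations 0.585 to 0.696). Ereg and Hbegf correlated with each other at 0.568 over the 25 arrays (deviations 0.48).

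Among 8 further receptors and ligands of the ErbB family, 4 were tested. Nrg1, which encodes neuregulin 1, a ligand of ErbB3 and ErbB4, rose on Day 7 in FP-KO lungs (1.22 ± 0.23, limma adjusted p = 0.000621) and in WT lungs (0.74 ± 0.23, adjusted p = 0.0138). Its median intensity on Day 7 was 151 in FP-KO lungs and 128 in WT lungs, against 68.0 and 77.6 on Day 0. The coreceptors Erbb3 (-0.69 ± 0.12) and Erbb2 (-0.45 ± 0.12) fell on Day 7 in WT lungs, where 18.0% of all genes fell. On Day 14 against Day 0, 0 of the 4 passed in either genotype. Of all genes, 3.26% passed there in FP-KO lungs, and 19.1% rose and 19.5% fell in WT lungs. Epgn, the neighbour of Ereg, read 8.0 to 55.2 on all arrays and was not tested.

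Sheddases and their cofactors release the ligands. Of 9 genes tested, 5 rose on Day 7 in FP-KO lungs (12.6% of all genes rose) and 6 in WT lungs (17.1%). On Day 14, 0 passed in FP-KO lungs (3.26% of all genes passed) and 7 rose in WT lungs (19.1% rose). None fell in these 4 comparisons. The median difference on Day 14 was 0.27 in FP-KO lungs and 0.63 in WT lungs. Adam12 was the most changed, at 1.59 ± 0.24 in WT lungs on Day 14, followed by Adam8 (0.88 ± 0.19), Rhbdf2 (0.76 ± 0.19), which encodes the iRhom2 cofactor of Adam17, and Adam17 itself (0.72 ± 0.08). Without FP-KO Day 14 No. 2, 4 of the 9 rose on Day 14 in FP-KO lungs.

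Adam17 encodes the main sheddase of Ereg, Hbegf and Tgfa precursors. It read 1157.9 to 1464.6 in FP-KO Day 14 lungs, with a median of 1266, against 1443.7 to 1759.6 with a median of 1663 in WT Day 14 lungs. FP-KO was lower than WT on Day 14 by -0.35 ± 0.08 for Adam17 (limma adjusted p = 0.00906) and by -1.10 ± 0.24 for Adam12 (adjusted p = 0.00659), and these were the 2 of 9 that passed. The same 2 passed in the interaction from Day 0 to Day 14 (Adam12 -1.32 ± 0.35, adjusted p = 0.044; Adam17 -0.43 ± 0.12, adjusted p = 0.0483). Of all genes, 5.64% were lower in FP-KO lungs on Day 14 and 1.84% had a negative interaction. Without FP-KO Day 14 No. 2 the counts of the 9 genes were 1 and 0, and within the second set of Day 14 arrays 0 and 0.

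Of 17 adaptors and kinases of the pathway, 12 were tested. On Day 14 in WT lungs 4 rose, among them Map2k2 (0.72 ± 0.20) and Map2k1 (0.30 ± 0.09), which encode the MEK kinases, Grb2 (0.43 ± 0.10), the adaptor that joins the receptor to Sos, and Shc1 (0.42 ± 0.13). Gab1 (-0.49 ± 0.08), Sos2 (-0.42 ± 0.12) and Ptpn11 (-0.27 ± 0.09) fell. Of all genes, 19.1% rose and 19.5% fell in WT lungs on Day 14. In FP-KO lungs on Day 14, Gab1 alone passed (-0.35 ± 0.09, limma adjusted p = 0.03), where 3.26% of all genes did. Grb2 was the 1 of 12 that differed between genotypes on Day 14 (-0.42 ± 0.10 for FP-KO against WT, adjusted p = 0.00874). In that comparison 5.64% of all genes were lower in FP-KO lungs and 4.89% higher.

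Of 14 feedback inhibitors, all tested, 2 rose and 3 fell on Day 7 in FP-KO lungs, and 4 rose and 4 fell in WT lungs. On Day 14, 0 rose and 1 fell in FP-KO lungs, and 3 rose and 5 fell in WT lungs. Of all genes, 12.6% rose and 10.7% fell on Day 7 in FP-KO lungs, and 17.1% and 18.0% in WT lungs. For Day 14, 3.26% of all genes passed in FP-KO lungs, and 19.1% rose and 19.5% fell in WT lungs. Spry2, a Sprouty inhibitor of the Ras to ERK step, fell on Day 14 in FP-KO lungs (-0.62 ± 0.12, limma adjusted p = 0.00851) and in WT lungs (-0.94 ± 0.12, adjusted p = 2.23e-06). Errfi1, which encodes a direct inhibitor of the EGF receptor kinase, fell in WT lungs (-0.69 ± 0.22), and Dusp6, an ERK phosphatase, rose (0.82 ± 0.18). None of the 14 passed between genotypes on Day 14, where 5.64% of all genes were lower in FP-KO lungs and 4.89% higher. The median difference of the 14 there was 0.04.

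Transcripts known to follow EGF receptor and ERK signalling were tested for 13 of 16 genes. On Day 7, 4 rose and 1 fell in FP-KO lungs, and 8 rose and 2 fell in WT lungs. On Day 14, 1 rose and 0 fell in FP-KO lungs, and 6 rose and 2 fell in WT lungs. Of all genes, 12.6% rose and 10.7% fell on Day 7 in FP-KO lungs, and 17.1% and 18.0% in WT lungs. For Day 14, 3.26% of all genes passed in FP-KO lungs, and 19.1% rose and 19.5% fell in WT lungs. The transcription factor genes Egr2 (1.60 ± 0.21), Myc (1.13 ± 0.16) and Junb (0.94 ± 0.17), and Phlda1 (0.92 ± 0.14), led the rise in WT lungs on Day 14. Vegfa (-0.38 ± 0.15) and Ier3 (-0.30 ± 0.12) fell there. These genes follow many other stimuli as well.

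On Day 14, 7 of the 13 were lower in FP-KO than in WT lungs and 0 were higher, where 5.64% of all genes were lower and 4.89% higher, with log2 differences of -1.44 to -0.49. Egr2 read 158.7 to 325.8 in FP-KO lungs and 489.3 to 735.4 in WT lungs (-1.29 ± 0.21, limma adjusted p = 0.00108), and Junb differed by -0.72 ± 0.17 (adjusted p = 0.00884). All FP-KO arrays were below all WT arrays in deposited intensity for Egr2, and likewise for Egr1, Egr3 and Fos. Groups failed to overlap on that day in 11.0% of all genes tested. Without FP-KO Day 14 No. 2 the count was 3 of 13, within the first set of arrays 5 and within the second set 0. In the interaction from Day 0 to Day 14, Egr2 alone passed (-1.31 ± 0.31, limma adjusted p = 0.0256), where 1.84% of all genes had a negative interaction. Without FP-KO Day 14 No. 2, 0 of the 13 passed in it. On Day 0 and Day 7, 0 of the 13 passed between genotypes, where 0.0166% of all genes did on each day. As given above, 6 of 10 macrophage markers were lower and 5 of 6 ciliated and 5 of 6 cardiac muscle markers higher in the same FP-KO Day 14 lungs, and their part in these differences was not tested.

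**Figure D5:**
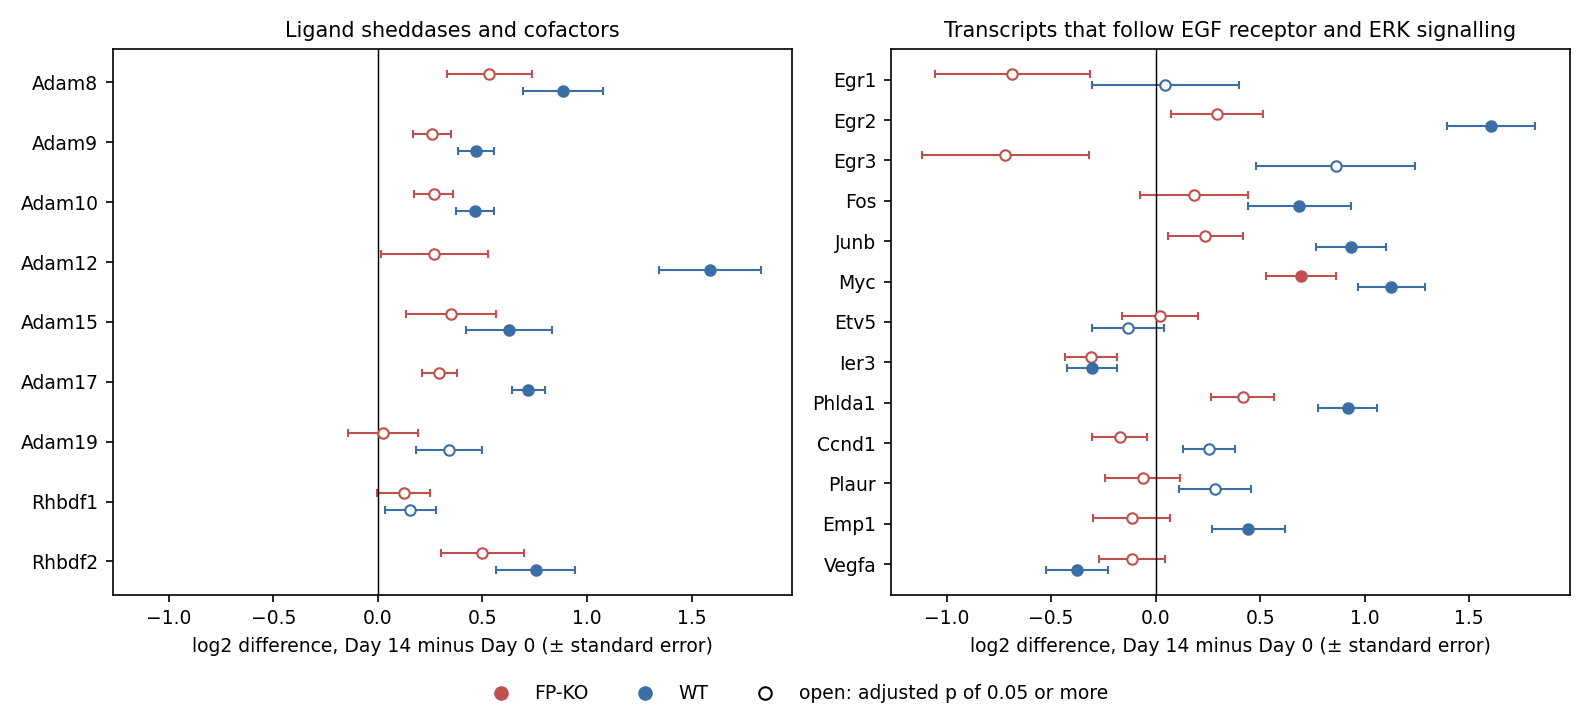
Log2 difference of Day 14 from Day 0 in FP-KO (red) and WT (blue) lungs, with standard errors from limma, for the sheddases and cofactors tested (9 genes) and the transcripts that follow EGF receptor and ERK signalling (13 genes); filled points passed. Among the sheddases 0 points are filled for FP-KO and 7 for WT, and Adam12 (0.27 in FP-KO, 1.59 in WT) and Egr2 (0.29 in FP-KO, 1.60 in WT) lie farthest apart among the genes that passed in WT.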

How the data were processed

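Members, lists and tests were chosen with earlier results of these data known. The deposited intensities are linear, with 1 value for each probe set on each array. As deposited, every array has a mean of 500 once the highest and lowest 2% are trimmed, so the authors had scaled them, with software that no label names. Per the labels' protocols, 6 ug of total lung RNA extracted with Sepasol was made into biotinylated cRNA. Depth is not defined for arrays, and their number, 4 or 5 per group, limits the precision.

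Intensities were floored at 24.3 (20th percentile of all values), taken to log2 and quantile-normalized, since array medians spanned 0.432 log2 units. Of 45101 probe sets, 64 controls, 932 with several symbols and 9160 without one were left out, which left 34945. Symbols and neighbouring genes were taken from the GEO platform annotation and a RefSeq gene table (GRCm38.p6), in which 34741 matched by gene number. Each of the 18193 genes was represented by its brightest probe set on average, and the 12062 whose value exceeded the median of 4 or more arrays were tested.

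A linear model with 6 group means and 12 contrasts was fitted and moderated (lmFit, eBayes, Benjamini-Hochberg, adjusted p under 0.05; limma 3.58.1 under R 4.3.3), after being tested on simulated data. Probe sets were also fitted one by one without a filter. Plots were made in matplotlib 3.10.9 (python 3.11.15). Alternatives comprised 17 settings and each of the 25 arrays left out. Named genes were Ptgfr, all members, per list up to 4 passing genes each way by the size of the WT Day 14 difference and 2 by genotype p, and the 3 genes most correlated with each member tested.

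The labels name no pairs of mice. FP-KO and WT mice that share a number had deviations from their group means that correlated by 0.119 to 0.345 (Day 0), 0.141 to 0.221 (Day 7) and -0.308 to 0.437 (Day 14). On Day 0 and Day 7 all pairs of equal number correlated positively, while most pairs of unequal number correlated negatively. There were exceptions, as FP-KO No. 4 and WT No. 3 on Day 7 correlated by 0.294, above all pairs of equal number on that day. These values do not settle whether mice of equal number were paired or handled together. The main fit treated all arrays as unpaired, and the mouse number entered only as an alternative setting.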

Additional observations from a re-analysis of the deposited data

Results flagged for a closer look

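Single arrays stood far from the rest of their group in 6 of 96 groups of member values, where chance alone gives about 1 in 20. On WT Day 14, Ereg read 278.1 on No. 4 (the highest), and Hbegf 1418349_at read 785.2 and Btc 1421161_at read 37.2 on No. 5 (each the lowest). On Day 0, Egfr 1432647_at read 148.7 on FP-KO No. 1 (the highest), Tgfa 1421943_at read 525.0 on WT No. 2 (the highest) and Egfr 1451530_at read 68.9 on WT No. 1 (the lowest).

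The change from Day 0 to Day 14 differed between FP-KO and WT lungs in 4 genes of the family and its pathway lists, by the interaction term of the limma fit. The interaction was -1.88 for Ereg, -1.32 for Adam12, -0.43 for Adam17 and -1.31 for Egr2, each lower in FP-KO lungs. All 4 calls were lost without FP-KO Day 14 No. 2.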

How the results depend on the processing

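Counts are of the 5 genes tested (or 16 probe sets). In FP-KO lungs, the count on Day 7 was 1 with a filter on the mean over all arrays, which left Ereg untested, and 1 with every probe set tested on its own and no filter; it was 1 to 2 over arrays left out in turn. On Day 14 it was 1 with array weights, within the first set and within the second set of Day 14 arrays, and 0 to 1 over arrays left out. Between Day 7 and Day 14 it was 1 with the filter on the mean, 1 within the second set and 0 with only the arrays of the groups compared. In WT lungs, the Day 7 count was 1 with the filter on the mean and 1 with every probe set tested (1 to 2 over arrays left out). The WT Day 14 count was 1 with the filter on the mean and 4 with array weights (1 to 3). Between Day 7 and Day 14 in WT lungs it was 2 with array weights, 2 with the replicate block, 1 with the set as a term and 1 within the first set (0 to 1).

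For FP-KO against WT on Day 14 the count was 0 with the filter on the mean, with only the arrays compared and within the second set. It was 2, Ereg and Hbegf, with the mean of all probe sets, the set as a term and the first set alone (1 to 2 over arrays left out). For the interaction at Day 14 it was 0 with a common median, a floor at the 10th percentile, no filter, the filter on the mean, every probe set, only the arrays compared, the replicate block over all arrays and the second set (0 to 1). The Tgfa difference of WT Day 14 from Day 0 turned to 0.0724 with the mean of all its probe sets. Other causes were not tested.

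The mouse number as a replicate block within day gave -1.71 for Ereg in FP-KO against WT on Day 14 (limma adjusted p = 0.00908) and -1.93 for the interaction (adjusted p = 0.037). With the block over all arrays, the Day 14 interaction of Hbegf 1418349_at passed (-0.66, limma adjusted p = 0.0436). Egfr 1435888_at for FP-KO against WT on Day 14 passed too (0.62, adjusted p = 0.0483). No. 5 occurs on WT Day 14 alone, so this block also sets that array aside. Leaving that array out gave the same -0.66 for Hbegf 1418349_at (adjusted p = 0.0281). On Day 0 and Day 7 the block changed no genotype call of a member. Limits include the number of arrays, the floor for Ereg on Day 0, the 2 Day 14 sets and the array FP-KO Day 14 No. 2.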
